A study of Homo sapiens with 6 samples.

Results

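The transcripts of 10 genes of the YAP/TEAD pathway were followed in U87 cells, an established human glioma line, across 6 RNA-seq libraries. The genes were taken by name, 10 of the 57905 gene identifiers in each file: the coactivators YAP1 and WWTR1, the DNA-binding factor TEAD1, and the target genes CCN1, CCN2, ANKRD1, AMOTL2, AJUBA, LATS2 and PTPN14. All 10 names were found by their Ensembl identifiers. The 3 control libraries came from U87 cells whose genotype label reads WT and whose treatment label reads no. The 3 siRBM47 libraries came from U87 cells given small interfering RNA (siRNA) against RBM47, an RNA-binding protein. The labels carry a transfection protocol with Lipofectamine and 100 pmol of siRNA for every library, and do not say what the control cells received. An effect of transfection and an effect of the siRNA therefore cannot be told apart. The comparison asks which transcripts differ when RBM47 is targeted. Nothing in the labels says that replicates were separate cultures, so a p-value here reflects only how far these 6 libraries vary, variation that may be technical.

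YAP1 and WWTR1 (also called TAZ) are transcriptional coactivators that cannot bind DNA themselves and act through TEAD factors. The Hippo kinases LATS1 and LATS2 phosphorylate both coactivators, which keeps them in the cytoplasm and marks them for degradation, so their activity is set largely at the protein level and is not read from their own mRNA. Matrix stiffness, cell spreading and low cell density release them to the nucleus, where they induce matricellular proteins such as CCN1 and CCN2 and also genes that restrain the pathway, among them LATS2, AMOTL2 and PTPN14. In glioma the coactivators are known for promoting proliferation and a mesenchymal state.

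TEAD factors bind a short element with the letters CATTCC, and the starts of 3 members are shown to let a reader see how often these letters occur in a strongly varying target (CCN2), in a feedback target (PTPN14) and in the coactivator gene that varied least (YAP1). Each line gives the 250 bases before the RefSeq transcript start on GRCh38.p14, 5′ to 3′ along the gene, with CATTCC or its reverse complement GGAATG in capitals. The windows are chr6:131951373-131951622 on the minus strand for CCN2, chr1:214551603-214551852 on the minus strand for PTPN14 and chr11:102110197-102110446 on the plus strand for YAP1.
CCN2: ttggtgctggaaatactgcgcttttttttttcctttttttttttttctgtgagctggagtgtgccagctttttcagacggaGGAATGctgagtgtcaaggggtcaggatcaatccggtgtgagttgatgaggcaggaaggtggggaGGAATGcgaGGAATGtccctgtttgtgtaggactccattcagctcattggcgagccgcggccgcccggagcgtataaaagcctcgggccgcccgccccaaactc
PTPN14: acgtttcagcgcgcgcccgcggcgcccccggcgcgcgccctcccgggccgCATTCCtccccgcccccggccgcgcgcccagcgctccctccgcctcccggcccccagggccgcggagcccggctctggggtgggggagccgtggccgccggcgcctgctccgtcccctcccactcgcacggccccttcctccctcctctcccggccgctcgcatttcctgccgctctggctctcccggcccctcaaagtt
YAP1: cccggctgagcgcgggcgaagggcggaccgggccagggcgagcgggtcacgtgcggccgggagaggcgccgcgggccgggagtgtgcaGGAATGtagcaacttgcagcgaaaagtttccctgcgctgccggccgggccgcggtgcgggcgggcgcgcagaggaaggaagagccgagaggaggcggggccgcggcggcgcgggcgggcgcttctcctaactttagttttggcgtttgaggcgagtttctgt
The CCN2 window holds 3 matches, which begin 169, 104 and 95 bases before the start, and the PTPN14 and YAP1 windows hold 1 match each. RefSeq gave windows for 8 of the 10 members, TEAD1 and CCN1 not among them. Of the 11 windows of these 8 genes, 6 held the letters on either strand, against 11.9% of 35116 windows of the same length over all genes, and 0.94% of all windows held 2 or more matches, as those of CCN2 and ANKRD1 did. The AP-1 element TGANTCA, read on both strands, was found in 1 member window (ANKRD1) and in 6.57% of all windows. The CArG box of serum response factor, read on both strands, was in 0 member windows and in 1.16% of all windows. None of these motifs shares bases with another in the member windows. A match is a run of letters in a window, not a binding site.

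Libraries held 15580000 to 18130000 counts (rounded), and 14578 genes were abundant enough to test. Levels are given as CPM, counts relative to a library size scaled by TMM factors, and differences as log2 fold changes of siRBM47 over control from the edgeR quasi-likelihood test, with p-values adjusted over all 14578 genes. The targeted gene RBM47 had CPM of 1.62, 1.73 and 5.75 across the controls, in the order of replicates 1, 2 and 3 kept below, and of 3.54, 2.74 and 2.23 across siRBM47, so the siRBM47 libraries were not the lower ones (log2 fold change -0.11, SE 0.50, adjusted p = 0.942, edgeR). Directions are therefore those between libraries labelled siRBM47 and control. Control replicate 3 stood apart: a chi-square test of counts gave 145 and 117 per degree of freedom against control replicates 1 and 2, and 10.7 between these. Results on the members and on the gene lists are given with and without it. Of 8 glioma and astrocyte markers, VIM was at 2831 to 4939 CPM, CD44 at 596 to 902, NES at 13.1 to 15.2 and OLIG2 at 3.26 to 8.41, while SOX2, GFAP and S100B reached at most 1.6, 1.49 and 0.387 CPM and AQP4 was at 0 in all libraries. The 5 immune markers summed to at most 0.798 CPM, with AIF1 and ITGAM at 0, the 5 epithelial markers to 19.0 to 39.4 CPM, and the 4 endothelial markers found to 8.66 to 16.3 CPM.

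With all 6 libraries, none of the 9 tested members passed the test between the groups, with 95% intervals of the log2 fold change from -0.44 to 0.40 for YAP1 to -1.89 to 1.09 for CCN2. By edgeR, 0 of the 9 members tested passed an adjusted p of 0.05, where 0.22% of all tested genes did. An unadjusted p under 0.05 was found for 0 of the 9, and for 2347 of the 14578 tested genes. DESeq2 also called 0 of the 9, where it called 4.37% of all tested genes (1.78% higher, 2.59% lower), and limma-voom 0 of the 9, with 0.233% of all genes (0.0892% higher, 0.144% lower). The median log2 fold change was -0.02 over the members and -0.01 over all tested genes, with 3 members positive and 6 negative. Control replicate 3 set most of the spread, being the highest of the 6 libraries for 8 of the 9 tested members against 25.4% of all tested genes, and above both other controls for 9 of 9 against 44.9%. Without control replicate 3, edgeR called 4 of 9 members higher (WWTR1, TEAD1, CCN2 and PTPN14) and 0 lower, where 10.1% of all tested genes were called higher and 11.3% lower (21.4% in all). In that setting the same 4 passed by DESeq2, which called 23.1% of all genes (11.2% higher, 11.9% lower), and by limma-voom, which called 21.3% (9.56% higher, 11.7% lower). All 9 had positive log2 fold changes, with a median of 0.40 against 0.02 over all tested genes. The control side of that fit is 2 libraries, closer to each other than any other pair within a group, and its intervals rest on their small spread.

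**Figure D1:**
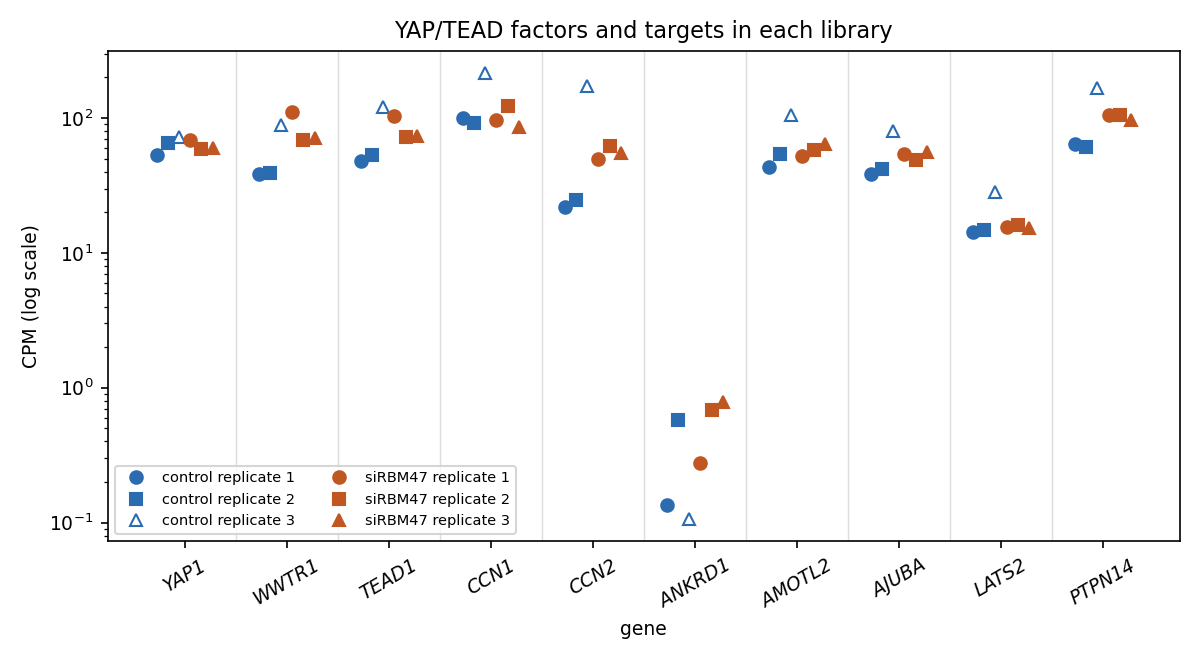
Level of each member in each library (vertical axis: CPM, log scale; blue, control; orange, siRBM47; symbol, replicate; open triangle, control replicate 3). Control replicate 3 is the highest library for 8 members, while ANKRD1 lies under 1 CPM in all 6 libraries.

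Among the DNA-binding complex, YAP1 was steady and WWTR1 and TEAD1 were not. YAP1 (chromosome 11, 102110461 to 102233423, GRCh38) was at 53.4, 65.7 and 72.2 CPM in the controls and at 69.2, 59.3 and 60.3 in siRBM47. The groups overlapped fully, and the means were 63.8 ± 9.56 and 62.9 ± 5.43 CPM (SD, n = 3 each). The log2 fold change of YAP1 was -0.02, with a 95% interval from -0.44 to 0.40 (SE 0.19, adjusted p = 0.97, edgeR), so that ratios from 0.736 to 1.32 lay within the interval.

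WWTR1, the paralogue of YAP1 (chromosome 3, 149517235 to 149736714), was at 38.2, 38.8 and 89.3 CPM in the controls and at 110, 69.1 and 71.6 in siRBM47. Control replicate 3 lay inside the siRBM47 range and the other two controls below it. With all libraries the log2 fold change was 0.59 (SE 0.35, adjusted p = 0.438, edgeR), and without control replicate 3 it was 1.12 (SE 0.21, adjusted p = 0.00248, edgeR), a ratio of 2.17. TEAD1, the DNA-binding partner (chromosome 11, 12674591 to 12944483), was at 47.8, 53.3 and 120 CPM in the controls and at 104, 72.6 and 74.1 in siRBM47. It followed the order of WWTR1 except that control replicate 3 was the highest library. Its log2 fold change was 0.18 (SE 0.34, adjusted p = 0.834, edgeR) with all libraries and with control replicate 3 left out 0.73 (SE 0.19, adjusted p = 0.015, edgeR). Within siRBM47, replicate 1 was the highest library for WWTR1, TEAD1 and YAP1 alike.

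Of the secreted and nuclear targets, CCN2 varied most. CCN2, also known as connective tissue growth factor (chromosome 6, 131948176 to 131951373), was at 21.9, 24.7 and 173 CPM in the controls. In siRBM47 it was at 49.99, 61.6 and 55.2 CPM, between the 2 low controls and the high one. Control replicate 3 was 7.43 times the mean of the other two controls, and 0.384% of tested genes had a ratio at least as large. The log2 fold change was -0.40 with an interval from -1.89 to 1.09 (SE 0.67, adjusted p = 0.814, edgeR). Without control replicate 3 the sign turned and CCN2 was called higher, at 1.26 (SE 0.18, interval 0.87 to 1.64, adjusted p = 0.000424, edgeR). Its window, shown above, is the one with 3 CATTCC matches.

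CCN1, the related matricellular protein CYR61 (chromosome 1, 85580761 to 85583962), was at 101, 91.9 and 216 CPM in the controls and at 96.2, 123 and 85.4 in siRBM47. The siRBM47 libraries spanned the other two controls, and control replicate 3 alone was high. The log2 fold change was -0.42 (SE 0.32, adjusted p = 0.556, edgeR), and with control replicate 3 left out 0.078, with an interval from -0.30 to 0.45 (SE 0.17, adjusted p = 0.782, edgeR). ANKRD1, a nuclear ankyrin-repeat protein that is among the most used YAP readouts (chromosome 10, 90912096 to 90921276), was barely detected. It had 2, 10 and 2 counts in the controls and 5, 12 and 14 in siRBM47, which is 0.135, 0.575, 0.106, 0.276, 0.686 and 0.782 CPM. ANKRD1 did not pass the filter on low counts and is the 1 member not tested. The summed counts were 14 in control and 31 in siRBM47, a ratio of 2.11 per scaled library size, with an exact interval from 1.09 to 4.29 that covers counting error only. With no filter edgeR gave a log2 fold change of 1.07 (SE 0.80, adjusted p = 0.623, edgeR). Control replicates 1 and 3 had 2 counts each, under a floor of 3 counts, so their order cannot be read.

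The target genes that act back on the pathway shared the high value in control replicate 3. PTPN14, a phosphatase that binds YAP1 and retains it outside the nucleus (chromosome 1, 214348696 to 214552449), was at 64.7, 61.1 and 166 CPM in the controls and at 105, 106 and 96.3 in siRBM47. The siRBM47 libraries lay between the low controls and control replicate 3, as for CCN2. The log2 fold change was 0.08 (SE 0.35, adjusted p = 0.94, edgeR), and with control replicate 3 left out 0.71 (SE 0.15, adjusted p = 0.00566, edgeR).

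AJUBA, a LIM-domain protein that inhibits LATS kinases (chromosome 14, 22971174 to 22982642), was at 38.5, 42.0 and 80.0 CPM in the controls and at 54.2, 49.1 and 55.9 in siRBM47. Its log2 fold change was -0.01 (SE 0.28, adjusted p = 0.988, edgeR), and with control replicate 3 left out 0.40 (SE 0.16, adjusted p = 0.0943, edgeR), where the groups did not overlap but the test was not passed. AMOTL2, an angiomotin that binds the coactivators at junctions and actin (chromosome 3, 134355874 to 134375479), was at 43.7, 54.0 and 105 CPM in the controls and at 52.0, 58.2 and 64.1 in siRBM47. The siRBM47 libraries lay near control replicate 2, and the log2 fold change was -0.22 (SE 0.31, adjusted p = 0.764, edgeR) with all libraries and with control replicate 3 left out 0.25 (SE 0.17, adjusted p = 0.322, edgeR). LATS2, the kinase that phosphorylates both coactivators (chromosome 13, 20973032 to 21061547), was at 14.4, 14.8 and 28.3 CPM in the controls. In siRBM47 it was at 15.58, 16.2 and 15.4 CPM, just above the other two controls. The log2 fold change was -0.29 (SE 0.28, adjusted p = 0.66, edgeR), and with control replicate 3 left out 0.11, with an interval from -0.29 to 0.51 (SE 0.19, adjusted p = 0.714, edgeR).

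**Figure D2:**
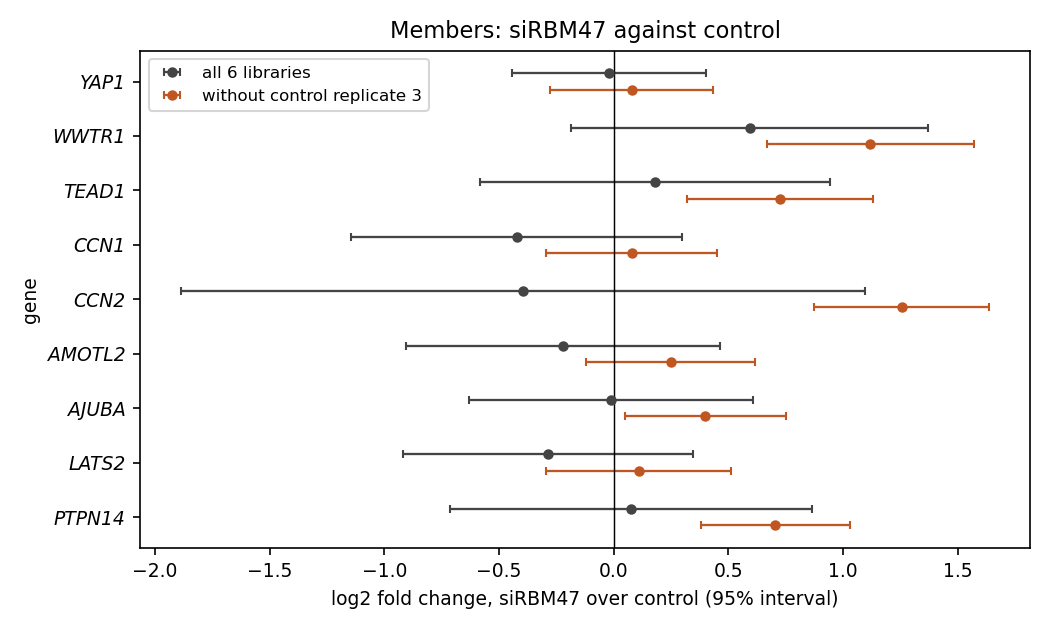
Log2 fold change of siRBM47 over control for the 9 tested members (points, edgeR estimates; bars, 95% intervals), with all 6 libraries in grey and without control replicate 3 in orange. All grey intervals cross 0, and the orange intervals of WWTR1, TEAD1, CCN2, AJUBA and PTPN14 lie above 0, of which AJUBA did not pass after adjustment.

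Without control replicate 3, the siRBM47 libraries lay above both remaining controls for 6 of the 9 tested members (WWTR1, TEAD1, CCN2, AJUBA, LATS2 and PTPN14) and below them for 0, where 27.1% of all tested genes lay above and 27.1% below. With all 6 libraries the groups overlapped for 9 of 9 members, against 22.6% of tested genes whose groups did not overlap. Exon sequence shared with another annotated gene on the opposite strand amounted to 9.97% for YAP1, 9.45% for WWTR1 (by WWTR1-AS1), 8.34% for CCN2 and 6.47% for PTPN14. The labelled library kit leaves strand unmarked, and how reads in shared stretches were counted is not stated. Counts of these genes may therefore have gained or lost reads there.

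Per length, CCN1 was the most abundant member and ANKRD1 the least. In the authors' deposited FPKM, a level per kilobase of gene, CCN1 had a mean of 54.7 ± 27.5 in control and 41.1 ± 7.54 in siRBM47, and CCN2 followed at 30.8 ± 36.2 and 23.6 ± 2.29 (SD, n = 3 each). YAP1, AMOTL2, AJUBA, WWTR1, TEAD1 and PTPN14 had means from 5.11 to 11.2 FPKM in either group. Among these genes, the ranges of 1 SD overlapped for neighbours in the order of means, except for TEAD1 (7.69 ± 1.68) and PTPN14 (5.43 ± 0.264) in siRBM47. LATS2 was at 3.29 ± 1.34 and 2.72 ± 0.047, and ANKRD1 at 0.136 ± 0.132 and 0.292 ± 0.135. CCN2 held its place below CCN1 in every library, from 9.27 against 40.6 FPKM in control replicate 1 to 72.6 against 86.4 in control replicate 3.

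The balance of the paralogues shifted between libraries. The ratio of YAP1 to WWTR1 in FPKM was 1.87, 2.26 and 1.08 in control replicates 1, 2 and 3 and 0.838, 1.15 and 1.13 in siRBM47. In FPKM, YAP1 thus exceeded WWTR1 in 5 of 6 libraries, and control replicate 3 lay inside the siRBM47 range. In CPM, which is not divided by length, WWTR1 was above YAP1 in control replicate 3 and in every siRBM47 library. The order of these 2 genes there depends on the gene lengths used. The ratio of CCN1 to CCN2 was 4.38, 3.55 and 1.19 in the controls and 1.83, 1.91 and 1.47 in siRBM47. In FPKM, TEAD4, another TEAD factor, exceeded TEAD1 in every library except control replicate 3. TEAD1 over TEAD4 was 0.312, 0.274 and 1.14 in control replicates 1, 2 and 3 and 0.964, 0.549 and 0.473 in siRBM47. In CPM, TEAD1 was above TEAD4 in every library, so the order of this pair also depends on the gene lengths used. The kinase ratio LATS2 over LATS1 was 1.54, 1.92 and 2.43 in the controls and 0.995, 1.45 and 1.40 in siRBM47. The groups did not overlap for this ratio, as they did not for the levels of 22.6% of single tested genes. These ratios were given no test, and the smallest two-sided p that an exact permutation test of 3 against 3 allows is 0.1.

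**Figure D3:**
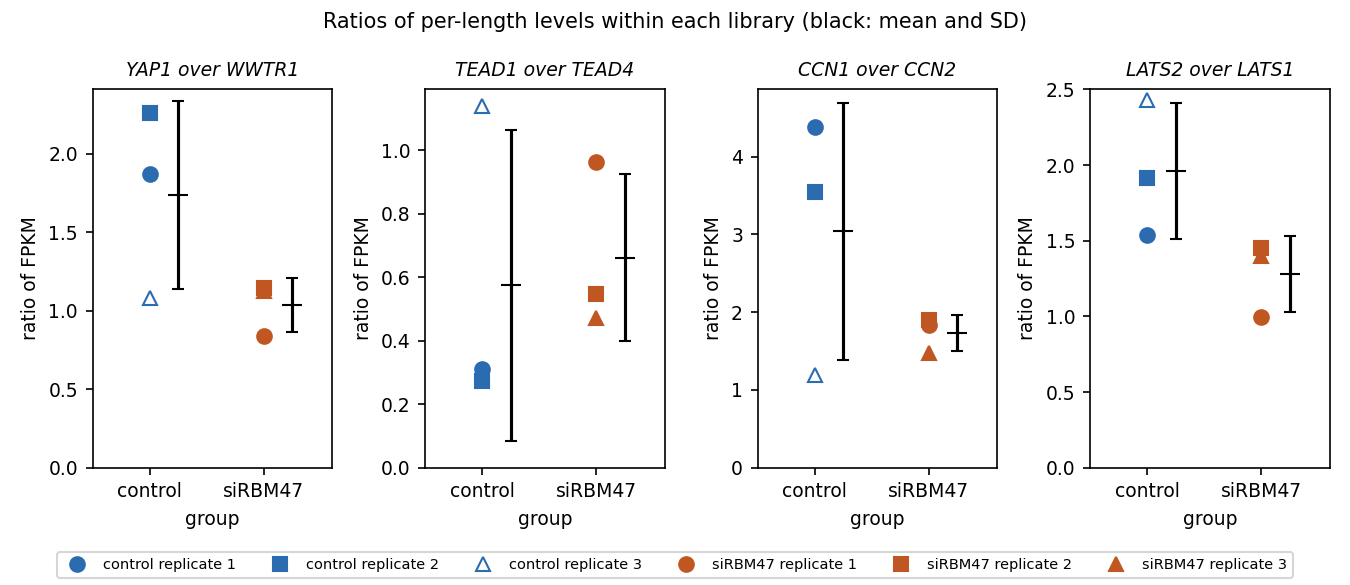
Ratio of 2 genes' FPKM in each library, for YAP1 over WWTR1, TEAD1 over TEAD4, CCN1 over CCN2 and LATS2 over LATS1 (vertical axes from 0; symbols, libraries; black, mean and SD of a group, n = 3). Control replicate 3 is closer to the siRBM47 libraries than to the other controls in the YAP1 and CCN1 panels, and the highest library in the TEAD1 and LATS2 panels.

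Of 22 listed regulators upstream of the coactivators, 21 were tested and 0 passed by any of the 3 tools. By edgeR an unadjusted p under 0.05 was found for 1 of them, and for 2347 of the 14578 tested genes. The smallest p-values were those of RASSF1, a scaffold that binds the MST kinases, whose mean CPM was 31.4 ± 3.43 for control and 43.8 ± 2.47 for siRBM47 (SD, n = 3; log2 fold change 0.48, adjusted p = 0.241, edgeR), of the kinase adaptor MOB1A (0.37, adjusted p = 0.388, edgeR) and of LATS1 (0.40, adjusted p = 0.459, edgeR). With control replicate 3 left out, edgeR gave 0.39 for RASSF1, 0.40 for MOB1A and 0.57 for LATS1 (adjusted p = 0.105, 0.113 and 0.0822). With all libraries the median over these regulators was 0.10. Without control replicate 3, 0 of 21 passed by edgeR, where 21.4% of all tested genes did. Before adjustment 8 of the 21 were under 0.05, and 5229 of the 14578 tested genes were. In that setting limma-voom called 0, and DESeq2 called 2, TAOK3 and FRMD6, named after their values were seen. Of the other TEAD factors and vestigial-like cofactors, which compete with the coactivators for TEAD, 6 of 7 were tested and again 0 passed by edgeR, limma-voom or DESeq2 (1 under 0.05 before adjustment). VGLL2 had a mean of 1.86 ± 0.833 CPM over the controls and of 4.26 ± 0.698 over siRBM47 (SD, n = 3), with a difference of 1.19 on the log2 scale (SE 0.40, adjusted p = 0.198, edgeR), TEAD2 had a log2 fold change of -0.47 (SE 0.27) and TEAD3 of -0.18 (SE 0.22). Without control replicate 3, TEAD2 was at -0.62 and TEAD3 at -0.28 (adjusted p = 0.0804 and 0.35, edgeR), and edgeR called 2 of the 6 higher, VGLL2 (1.48) and VGLL3 (0.88), where 10.1% of all tested genes were called higher.

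Among 18 tested of 19 further published YAP/TAZ target genes, 1 was called higher and 0 lower by edgeR, against 0.0823% and 0.137% of all tested genes. The called gene was EDN1, which encodes the vasoconstrictor peptide endothelin. It was at 0.542, 0.115 and 0.852 CPM in the controls and at 12.4, 11.6 and 11.6 in siRBM47 (log2 fold change 4.53, SE 0.48, adjusted p = 0.00955, edgeR), and it was at 5.21 (adjusted p = 5.05e-06, edgeR) with control replicate 3 left out. Without siRBM47 replicate 1, 2 or 3 the log2 fold change of EDN1 stayed at 4.50, 4.56 and 4.54, while the adjusted p was 0.17, 0.0824 and 0.0951 (edgeR); 0 genes of all those tested passed in these 3 fits. DESeq2 called 2 genes of this list with all libraries and limma-voom 1, where they called 4.37% and 0.233% of all tested genes. The median over the 18 genes was 0.044, with 10 positive and 8 negative. By edgeR 5 of the 18 had an unadjusted p under 0.05, as did 2347 of the 14578 tested genes. With all libraries the siRBM47 values lay above every control for 3 of the 18 and below for 2 (11.6% and 11% of all tested genes). Without control replicate 3, 8 were called higher and 2 lower, where 10.1% and 11.3% of all tested genes were. The 2 lower genes, named after their values were seen, were GADD45A and FJX1, so the further targets did not share 1 direction in that setting.

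**Figure D4:**
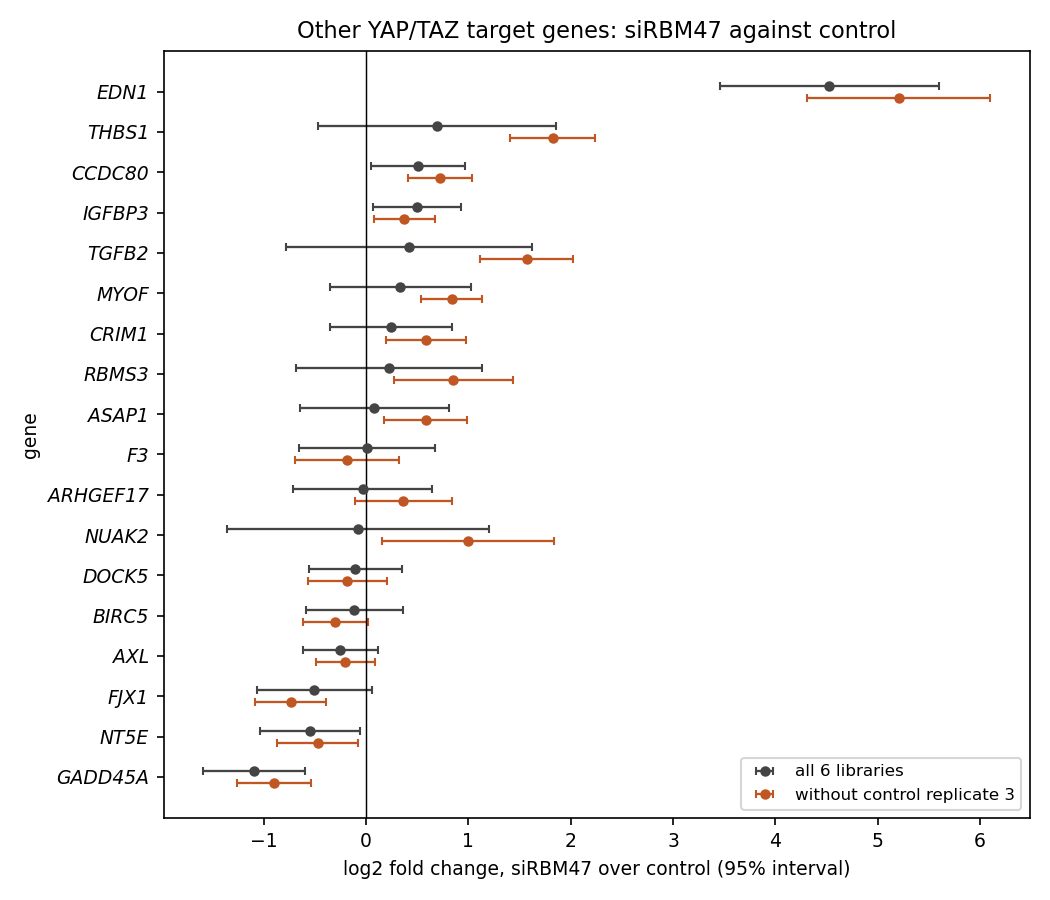
Log2 fold change of siRBM47 over control for the 18 tested further target genes (points, edgeR estimates; bars, 95% intervals; grey, all 6 libraries; orange, without control replicate 3), ordered by the grey value. EDN1 stands at 4.53, and the other grey values lie between -1.10 and 0.69.

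Genes driven by serum response factor and its actin-dependent cofactors share stimuli with CCN1, CCN2 and ANKRD1. The list used here also holds the factor SRF and the cofactors MRTFA and MRTFB themselves. Their log2 fold changes were -0.05, -0.11 and -0.18, and edgeR called none of them with or without control replicate 3. All 14 listed were tested and 1 was called, TAGLN, an actin-binding protein, which was higher at 109 ± 14.5 CPM in siRBM47 against 35.1 ± 9.98 in control (SD, n = 3; adjusted p = 0.037, edgeR). The call of TAGLN was kept without control replicate 3 and lost without any 1 of the other 5 libraries (adjusted p = 0.0693 to 0.222, edgeR), where its log2 fold change was 1.53 to 1.73 against 1.63 with all libraries. DESeq2 called 3 of the 14 with all libraries and limma-voom 1. Of all tested genes, edgeR called 0.22%, DESeq2 4.37% and limma-voom 0.233% with all libraries. An unadjusted p under 0.05 was found by edgeR for 6 of the 14 listed genes, and for 2347 of the 14578 tested genes. With all libraries the siRBM47 values lay above every control for 6 of the 14 and below for 0 (11.6% and 11% of all tested genes). The median over the 14 was 0.45, and without control replicate 3 edgeR called 9 of 14 higher, where 10.1% of all tested genes were. Of the other CCN family genes, 3 of 4 were tested and 0 passed by edgeR, limma-voom or DESeq2. Before adjustment 0 were under 0.05 by edgeR, where 2347 of the 14578 tested genes were. CCN4 was at 11.8, 10.4 and 53.4 CPM in the controls and at 50.5, 57.1 and 57.5 in siRBM47 (log2 fold change 1.12, SE 0.54, adjusted p = 0.341, edgeR). With control replicate 3 left out CCN4 was called higher by edgeR, DESeq2 and limma-voom, at 2.31 by edgeR (SE 0.19, adjusted p = 5.7e-06). With no filter on low counts and all libraries CCN4 also passed (1.14, SE 0.24, adjusted p = 0.00044, edgeR). That fit gave it a smaller SE than the filtered one, and called 326 genes higher and 478 lower, against 12 and 20.

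The tested fibroblast and mesenchymal markers were also higher in control replicate 3 than in the other controls. The 6 markers (COL1A1, COL1A2, COL3A1, PDGFRB, FAP and THY1, several of which mesenchymal glioma cells also express) summed to 1607 to 4979 CPM in the controls, the highest being control replicate 3, and to 3850 to 5537 CPM in siRBM47. With all 6 libraries, edgeR, DESeq2 and limma-voom called 0 of the 5 tested, where they called 0.22%, 4.37% and 0.233% of all tested genes. Control replicate 3 was the highest of the 6 libraries for 2 of the 5 (25.4% of all tested genes). It was above both other controls for 5 of the 5 (44.9% of all tested genes). Without that library 5 were called higher by edgeR (10.1% of all tested genes were). Their part in the values of the members was not tested.

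The genes whose level across the 6 libraries was most like that of CCN2, by Pearson r of log2 CPM over 9744 genes at a mean log2 CPM of at least 3, were SERINC3 and PLEKHG4 (r = 0.997 each), FAM114A1 (0.993), FBXL7 and PAMR1 (0.992 each). PLEKHG4, for example, was at 44.9, 43.7 and 157 CPM in the controls and at 70.0, 84.5 and 77.1 in siRBM47, the same order of groups as CCN2. Over the same libraries 144 genes had an r over 0.95, and among the members PTPN14 (0.982) and AJUBA (0.969) were most like CCN2 and YAP1 (0.625) least. With 6 libraries, 1 of which stands apart, these values describe a shared order and nothing more.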

How the data were processed

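The 6 libraries of U87 total RNA were grouped by the sample titles. The submitters' processing notes list HISAT2 2.0.5, featureCounts 1.5.0-p3 and hg38; for the annotation release and the strand setting nothing is stated there. Per gene, the authors deposited raw counts and FPKM, as named in the file headers. FPKM served only to compare levels between genes. A table of symbols named all but 5909 identifiers. Positions and exon overlaps are from GENCODE release 29 on GRCh38, promoter windows from RefSeq on GRCh38.p14.

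Genes kept by filterByExpr (minimum count 10; 14578 genes) were fitted in R 4.3.3 by edgeR 4.0.16, using TMM factors, its quasi-likelihood test and no block. Benjamini-Hochberg adjustment covered all tested genes, with a threshold of 0.05. Standard errors were derived from the log2 fold change and the F statistic. The code was tested on simulated data. All members were named; from each other pathway list, every gene past the threshold or otherwise the 3 with the smallest p (1 in lists under 6 genes); and the 5 genes most like CCN2. 1 listed target gene is not reported here. Members and lists were chosen with earlier results of these data known. Replicates differed beyond sampling noise, so none was treated as a repeat. Alternatives were RLE and upper quartile factors, DESeq2 1.42.0, limma-voom (limma 3.58.1), no filter, a minimum count of 50, the replicate number as a block, and leaving out each library; DESeq2 and limma-voom without control replicate 3 were added after seeing the data.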

Additional observations from a re-analysis of the deposited data

How the results depend on the processing

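No member passed the threshold in any fit that kept control replicate 3. Without 1 library the edgeR log2 fold change ran from -0.12 to 0.078 for YAP1, 0.34 to 1.12 for WWTR1, -0.037 to 0.73 for TEAD1, -0.63 to 0.078 for CCN1, -0.82 to 1.26 for CCN2, -0.44 to 0.25 for AMOTL2, -0.19 to 0.40 for AJUBA, -0.44 to 0.11 for LATS2, -0.16 to 0.71 for PTPN14 and -0.39 to 0.76 for RBM47, each highest without control replicate 3. Over these fits 0 to 4 members were called higher and 0 lower, 0 to 1473 of all genes higher and 0 to 1644 lower, and 0 to 20 genes of the other 5 pathway lists higher and 0 to 2 lower. Counts over all genes were 0 without siRBM47 replicate 1, 2 or 3 (edgeR; 1789, 1816 and 1445 genes at an unadjusted p under 0.05). Without control replicate 3, DESeq2 gave 0.080 for YAP1, 0.078 for CCN1, 1634 genes higher, 1729 lower and 22 other pathway genes higher, and limma-voom gave 0.080 for YAP1, 1.08 for WWTR1, 0.71 for TEAD1, 0.063 for CCN1, 1.25 for CCN2, 0.70 for PTPN14, 0.72 for RBM47, 1393 genes higher and 1708 lower, with 19 other pathway genes higher; both tools called 2 of these genes lower.

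With all libraries, limma-voom turned the sign for CCN2 (0.27), AJUBA (0.063) and RBM47 (0.10), and no filter for AJUBA (0.0045). DESeq2 called 260 genes higher and 377 lower, no filter gave 326 and 478, and a minimum count of 50 gave 19 higher; of the other pathway genes DESeq2 called 4 higher and 1 lower, and no filter 6 and 1. The cause was not tested. The replicate block turned the sign for CCN2 (0.34), AJUBA (0.068) and RBM47 (0.12), with 15 genes higher, 24 lower and 0 members called. Deviations of same-numbered libraries correlated at -0.036, 0.13 and 0.12, and control replicate 1 correlated best with siRBM47 replicate 2 (0.20). Deviations within a group of 3 libraries depend on each other. These values therefore cannot show whether same-numbered libraries shared a culture or a day. Depth limits ANKRD1 alone among the members, fitted only with no filter; RBM47 gave no value at a minimum count of 50.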

Other observations

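Of the pathway genes outside the 10 members, 3 examples are given here, chosen after their values were seen. Like CCN4, VGLL3 and others listed, these 3 genes had low levels in control replicates 1 and 2 alone. THBS1, a matricellular protein that activates latent TGF-beta, was at 11.1 and 12.3 CPM in these and at 53.4 in control replicate 3, against 43.1, 44.4 and 36.8 in siRBM47. TGFB2, a TGF-beta ligand, was at 21.4 and 23.3 CPM against 104 in control replicate 3 and 84.1, 62.8 and 52.3 in siRBM47. MYOF, a membrane-repair protein, was at 195 and 219 CPM against 465 in control replicate 3, and at 372, 365 and 370 in siRBM47. With all 6 libraries none of the 3 passed (adjusted p = 0.548, 0.74 and 0.635, edgeR). Without control replicate 3 edgeR called all 3 higher, where it called 10.1% of all tested genes higher. Because the 3 were chosen with their low values in control replicates 1 and 2 known, these calls follow from the choice and add nothing to it. CCN1 and LATS2 were also high in control replicate 3 but had siRBM47 levels near those of the other two controls, so the members and further targets did not all follow 1 order of libraries. GADD45A, a stress-response gene also listed as a YAP/TAZ target, went the other way, at 128, 119 and 178 CPM in the controls and 75.2, 69.6 and 53.8 in siRBM47 (log2 fold change -1.10, SE 0.22, adjusted p = 0.0741, edgeR), and was called lower by DESeq2 (adjusted p = 0.00115).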
